A study of Homo sapiens with 64 samples.

Results

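Apoptosis regulators of the BCL2 family were followed in human colorectal cancer (CRC) spheroids whose cells had been separated by how much of a dye they kept. The 9 genes were BCL2, BCL2L1, MCL1, BCL2L11, BMF, PMAIP1, BID, BIK and BAK1. They were taken by gene symbol from the 54127 Ensembl genes counted in every library, and all 9 had reads in all 64 libraries. For the sorted experiment, 6 CRC cell lines (HT55, SW948, RKO, SW48, DLD1 and HCT15) had been stained with CFSE, a dye that cells pass on in smaller amounts with every division. After 6 days as nonadherent spheroids with bFGF and EGF they were sorted into label-retaining cells (LRCs) and cycling non-LRCs, called BULK in the labels. Each line gave 4 LRC and 4 non-LRC libraries, 48 in all, and cells of both populations had been stained. A further 16 libraries labelled DLD1 came from bulk cultures with CFSE or without it (unlabeled), at day 1 and at a late time point that the sample labels give as day 5 and the series text as day 6, with 4 libraries in each group. The study's methods describe its replicates as biological, but the labels do not tie the 4 libraries of a group to cultures, so p-values describe the spread between these libraries.

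Members of the BCL2 family control whether the outer mitochondrial membrane is opened. BCL2, BCL-xL (the main product of BCL2L1) and MCL1 hold the effectors BAX and BAK in check, and the BH3-only proteins, among them BIM (BCL2L11), BMF, NOXA (PMAIP1), BID and BIK, bind the anti-apoptotic members or the effectors and so favor opening. Released cytochrome c then assembles the apoptosome with APAF1 and caspase-9. BCL-xL and MCL1 are known survival factors of intestinal epithelium. Counts per gene do not separate splice forms, such as BCL-xL and BCL-xS of BCL2L1, and say nothing of protein.

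Libraries held between 12237225 and 20913455 reads on genes. Levels are given as CPM, the reads of a gene scaled to the size of its library, after trimmed-mean (TMM) scaling over all 64 libraries, and log2 fold changes are given with their standard error (SE). Calls were made with edgeR's quasi-likelihood test, with Benjamini-Hochberg adjustment over all genes tested and a threshold of 0.05. The 7 markers of colorectal epithelium, all detected, summed to between 2440 and 16600 CPM in the sorted libraries of 5 lines and to between 218 and 332 CPM in RKO. Markers of blood cells and fibroblasts summed to at most 22.3 and 12.9 CPM. The summed level of the proliferation genes MKI67 and TOP2A was 365 to 549 CPM in DLD1 LRCs against 589 to 682 CPM in DLD1 non-LRCs, and its ranges overlapped between LRCs and non-LRCs in the other 5 lines. In these bulk samples, fewer cells of a type and less RNA per cell cannot be told apart.

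The control libraries did not match their label well. All 16 libraries labelled DLD1 correlated more closely with the mean of sorted HCT15 non-LRCs (Pearson r across 14789 genes, 0.931 to 0.991) than with that of sorted DLD1 non-LRCs (0.892 to 0.94). Of 768 genes more than 2 log2 CPM apart between those sorted lines, 75.4% to 98% lay nearer HCT15 in each control library. BCL2 was at 6.27 to 14.2 CPM in the controls, at 0.921 to 1.91 CPM in sorted DLD1 non-LRCs and at 7.87 to 10.1 CPM in sorted HCT15 non-LRCs. BMF was at 1.7 to 12.8 CPM in the controls, at 46.3 to 53.8 CPM in sorted DLD1 non-LRCs and at 7.97 to 19 CPM in sorted HCT15 non-LRCs. The controls are therefore called the libraries labelled DLD1. Library 4 of the unlabeled day 1 group correlated with the late unlabeled libraries at 0.978 to 0.993 and with its own group at 0.964 to 0.973. Control results of the members are therefore given with and without it, and those of other genes only with it.

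Levels in non-LRCs differed between lines for all 9 members in a test over the 6 lines, as they did for 98.3% of all genes. Over 15 pairs of lines and 9 members, 116 of 135 differences passed, beside 71.1% of all gene tests in these pairs. The widest ratio of mean CPM was that of BMF, 38.9-fold between HT55 and RKO, followed by BCL2, 31.1-fold between SW48 and SW948. MCL1 spanned 9.48-fold, BIK 6.92-fold and BAK1 5.52-fold. The narrowest were BCL2L11 (3.75-fold), BID (3.14-fold), PMAIP1 (2.99-fold) and BCL2L1 (2.16-fold).

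**Figure D1:**
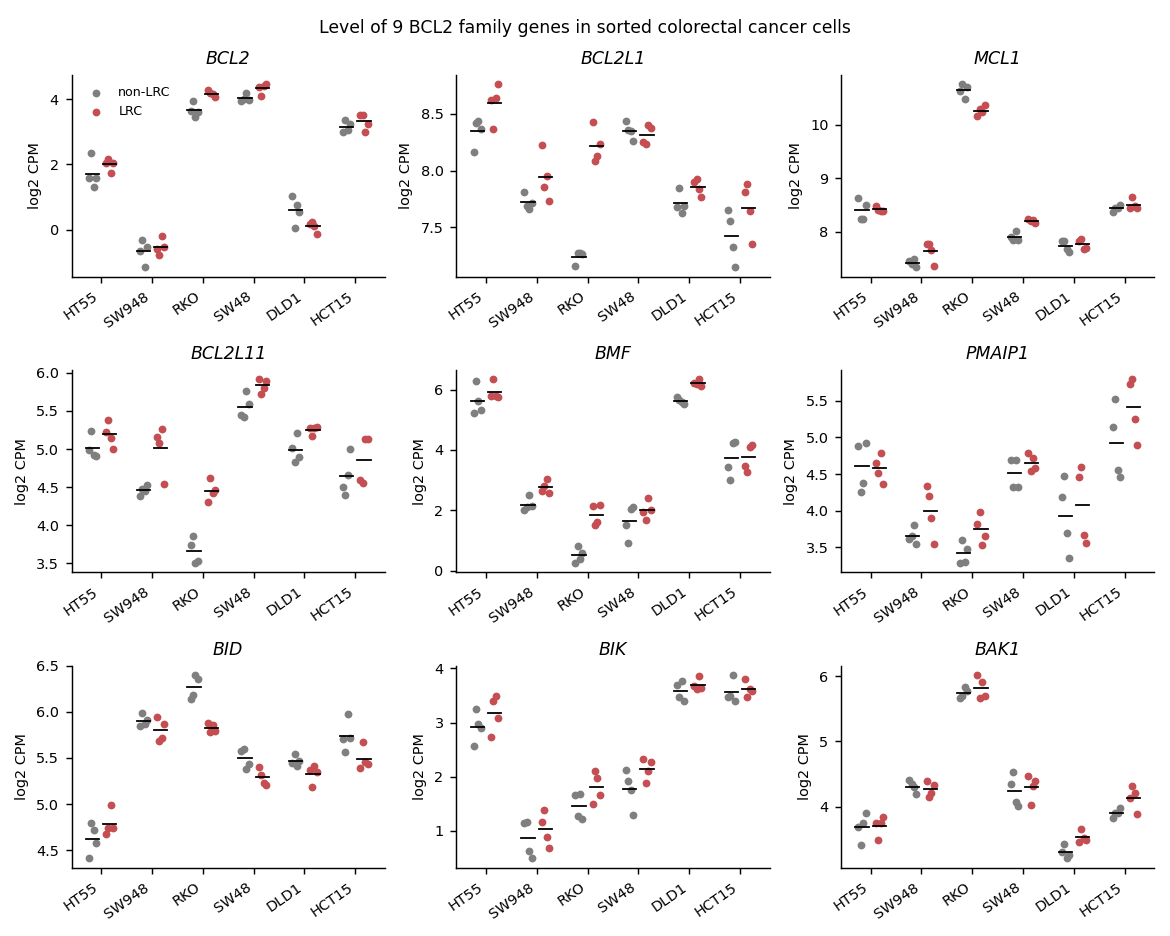
Level of each member (log2 CPM, vertical axis) in non-LRCs and LRCs of the 6 lines, with points for libraries and bars for group means (n = 4). MCL1 in RKO lies above every other line, BMF is high in HT55 and DLD1, and BCL2 is low in SW948 and DLD1.

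Among the anti-apoptotic genes, MCL1 was at 1600.2, 1750.0, 1437 and 1677 CPM in the RKO non-LRC libraries and at most 395 CPM in any other non-LRC library. The next line was HCT15 (348 ± 13 CPM, SD, n = 4), and RKO lay above it by 2.20 ± 0.09 log2 units (adjusted p = 1.09e-17). HCT15 and HT55 (340.1 ± 45.8 CPM) did not differ beyond their spread (adjusted p = 0.959), nor did SW48 and DLD1 (adjusted p = 0.125). SW948 was lowest at 170.4 ± 8.33 CPM. RKO thus stood apart for MCL1.

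BCL2L1 followed another order. SW48 (326 ± 15.6 CPM) and HT55 (326 ± 26.9 CPM) were highest and did not differ beyond their spread (adjusted p = 0.697). SW948 (211 ± 9.9 CPM) and DLD1 (209.8 ± 14.5 CPM) came next and did not differ either (adjusted p = 0.997). HCT15 (173 ± 26.7 CPM) lay above RKO (151 ± 5.84 CPM) by 0.20 ± 0.09 log2 units (adjusted p = 0.0435). In non-LRCs the line with the most MCL1 was therefore the line with the least BCL2L1.

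BCL2 itself had few reads in these lines. It was at 16.2 ± 1.35 CPM in SW48 and 12.6 ± 1.91 CPM in RKO, which did not differ beyond their spread (adjusted p = 0.0594). HCT15 (8.85 ± 1.05 CPM), HT55 (3.27 ± 1.16 CPM), DLD1 (1.43 ± 0.417 CPM) and SW948 (0.52 ± 0.15 CPM) followed, each below the line before it past the threshold. In SW948 fewer than 4 libraries reached 10 counts, so BCL2 was not tested there between LRCs and non-LRCs.

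Genes can be compared with each other only per length, so CPM was divided by the length of the canonical transcript. Per kb, MCL1 made up 70.4% ± 2.2 (SD, n = 4) of the summed anti-apoptotic transcripts (BCL2, BCL2L1, MCL1, BCL2L2, BCL2A1 and BCL2L10) in RKO non-LRCs, and BCL2L1 10.2% ± 0.649. In SW948, SW48, DLD1 and HT55 non-LRCs, BCL2L1 held 55% to 60.8% and MCL1 28.2% to 37.3%. HCT15 lay between, with 53.7% ± 4.44 for MCL1 and 40.6% ± 4.38 for BCL2L1. BCL2 held 1.1% ± 0.0845 in SW48 non-LRCs and less in non-LRCs of the other lines. BCL2A1, an anti-apoptotic member best known in blood cells, held 17.5% ± 1.63 in RKO non-LRCs and at most 0.055% in non-LRCs of the other 5 lines.

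**Figure D2:**
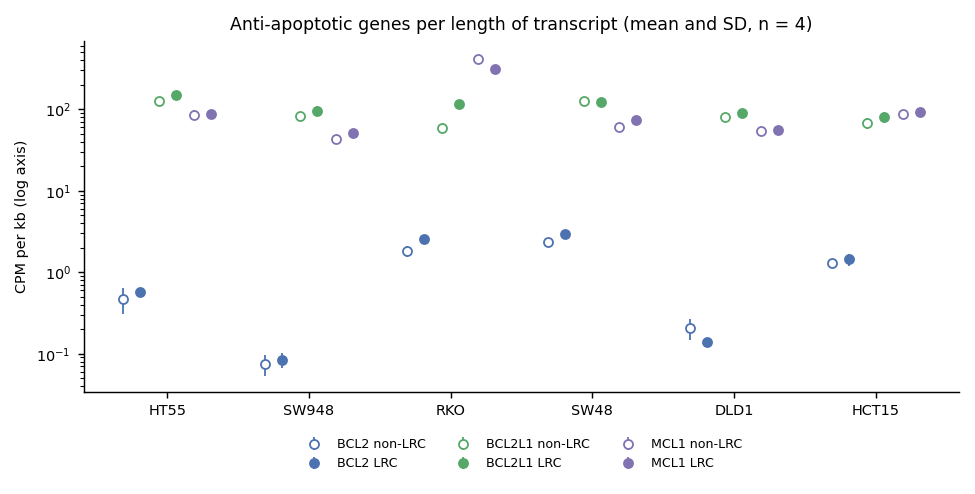
CPM per kb of canonical transcript (log axis) for BCL2, BCL2L1 and MCL1 in non-LRCs (open points) and LRCs (filled points) of each line, as mean and SD (n = 4). RKO has the highest MCL1, BCL2L1 is lowest in RKO non-LRCs, and BCL2 is the lowest of the 3 genes in every line.

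Among the BH3-only genes, BMF fell into separate ranges. HT55 (51 ± 18.2 CPM) and DLD1 (49.5 ± 3.23 CPM) did not differ beyond their spread (adjusted p = 0.803), and DLD1 lay 1.82 ± 0.23 log2 units above HCT15 (14.1 ± 5.52 CPM; adjusted p = 3.46e-07). SW948 (4.47 ± 0.771 CPM) and SW48 (3.18 ± 1.14 CPM) were not told apart (adjusted p = 0.137), and RKO was lowest at 1.31 ± 0.245 CPM. BCL2L11 was highest in SW48 (47.1 ± 5.35 CPM) and lowest in RKO (12.6 ± 1.54 CPM). For BCL2L11, HT55 (32.3 ± 3.55 CPM) and DLD1 (31.8 ± 3.86 CPM) did not differ beyond their spread (adjusted p = 0.758), nor did HCT15 (25.1 ± 4.79 CPM) and SW948 (21.9 ± 0.928 CPM; adjusted p = 0.137). RKO was lowest for both BIM and BMF transcripts.

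PMAIP1, which encodes the MCL1-binding protein NOXA, was the member with the fewest separable lines: 11 of its 15 pairs differed, and 4 of its 5 neighbors in order did not. It ran from 31.7 ± 11.3 CPM in HCT15 to 10.6 ± 1.15 CPM in RKO. BID, whose product is cut by caspase-8 and so links death receptors to mitochondria, was highest in RKO (77.2 ± 6.87 CPM) and lowest in HT55 (24.6 ± 2.84 CPM). BIK, a BH3-only gene of epithelial cells, was at 11.9 ± 1.46 CPM in DLD1 and 11.8 ± 1.92 CPM in HCT15, which did not differ beyond their spread (adjusted p = 0.93), and at 1.72 ± 0.441 CPM in SW948, the lowest line. The effector BAK1 was at 53.6 ± 2.82 CPM in RKO, 1.44 ± 0.11 log2 units above SW948 (19.7 ± 1.24 CPM; adjusted p = 2.98e-12), and lowest at 9.71 ± 0.646 CPM in DLD1. Among non-LRCs of the 6 lines, RKO therefore had the highest mean BAK1, BID and MCL1 and the lowest mean BCL2L11, BMF, PMAIP1 and BCL2L1.

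The comparison of LRCs with non-LRCs asks which transcripts differ between cells that kept the dye and cells that diluted it. Across the 6 lines, with line as a covariate, 5 of the 9 members were higher in LRCs and 1 was lower. Of the 16603 genes tested, 22.9% passed, 12.2% higher and 10.7% lower. The log2 fold change was 0.37 ± 0.06 for BCL2L11 (adjusted p = 1.04e-05), 0.43 ± 0.11 for BMF (adjusted p = 0.00234) and 0.30 ± 0.06 for BCL2L1 (adjusted p = 0.000248). BCL2 (0.22 ± 0.08, adjusted p = 0.037) and BIK (0.21 ± 0.07, adjusted p = 0.036) passed more narrowly. BID was lower, at -0.17 ± 0.04 (adjusted p = 0.00338). PMAIP1 (0.23 ± 0.09, adjusted p = 0.0557), BAK1 (0.10 ± 0.05, adjusted p = 0.125) and MCL1 (0.04 ± 0.05, adjusted p = 0.575) did not pass. PMAIP1 passed with the replicate number within line as a block (0.24, adjusted p = 0.00279). It also passed with relative log expression (RLE) scaling (adjusted p = 0.0444) and by DESeq2 (adjusted p = 0.037). With genes of low count kept in, BCL2 (edgeR adjusted p = 0.0788) and BIK (0.0791) did not pass. The median log2 fold change was 0.22 over the 9 members and 0.01 over all genes tested.

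Without RKO, BCL2 (0.14, adjusted p = 0.35), BIK (0.18, adjusted p = 0.126) and BID (-0.11, adjusted p = 0.0925) no longer passed, and MCL1 did (0.13, adjusted p = 0.022). Calls among all genes fell too, to 2378 of 16286 without RKO from 3803 of 16603 with all 6 lines. BCL2L11 (0.30, adjusted p = 0.000728), BCL2L1 (0.17, adjusted p = 0.013) and BMF (0.34, adjusted p = 0.027) still passed in the 5 remaining lines, and they passed with each of the other lines left out in turn. BCL2 also missed the threshold without SW948 (adjusted p = 0.0585), SW48 (0.159) or HCT15 (0.0552). BIK missed it without HT55 (adjusted p = 0.0597), SW48 (0.0989) or DLD1 (0.0651). With a line other than RKO left out, between 2853 (without DLD1) and 4051 (without HT55) genes passed. When all libraries of 1 replicate number were left out, BCL2 missed it without those numbered 1, 3 or 4 and BIK without those numbered 2, 3 or 4. In these fits 2243 to 2945 genes passed.

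**Figure D3:**
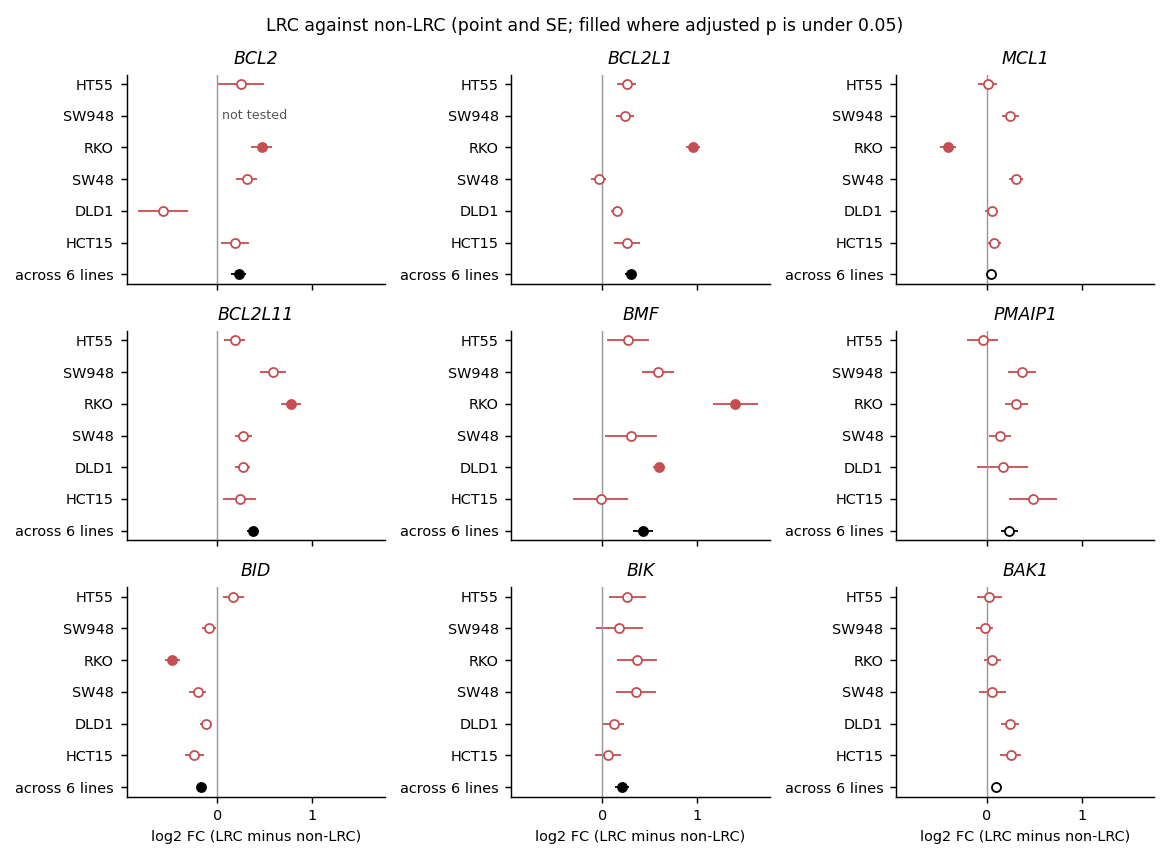
Log2 fold change of LRCs over non-LRCs (horizontal axis, bars are SE) for each member in each line and across the 6 lines, with filled points for an adjusted p under 0.05. BCL2L11 lies to the right of 0 in every line, MCL1 and BID in RKO lie to the left, and BCL2 was not tested in SW948.

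BCL2L11 had the steadiest difference. In DLD1, HT55, SW48 and HCT15, where libraries with the same replicate number deviated together, it was higher in the LRC library of all 16 same-numbered pairs, as were 0.476% of the genes tested. In HT55 it was at 37.2, 41.7, 35.4 and 32 CPM in LRCs and at 31.6, 37.5, 30.2 and 29.9 CPM in non-LRCs. In SW48 it was at 60.3, 52.9, 55.9 and 59.5 CPM in LRCs and at 43.5, 42.6, 54.3 and 48.2 CPM in non-LRCs. In both lines the groups overlapped, although each LRC library exceeded the non-LRC library of its own number. BCL2L11 was at 38.5, 35.9, 38.7 and 38.9 CPM in DLD1 LRCs against 32.2, 28.3, 37.1 and 29.7 CPM, and at 24, 23.3, 35.1 and 35 CPM in HCT15 LRCs against 22.5, 21, 25.2 and 31.8 CPM. These groups overlapped as well, and the pairs again ran 1 way.

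In SW948, BCL2L11 was at 35.6, 33.7, 38.4 and 23.2 CPM in LRCs and at 20.7, 22.1, 21.8 and 23 CPM in non-LRCs. The groups did not overlap, but LRC library 4 lay just above the highest non-LRC library. The log2 fold change was 0.59 ± 0.13 (adjusted p = 0.133). Without LRC library 4, 5 of the 8 members tested in SW948 passed, beside 14.5% of all genes (1956 of 13517). Without LRC library 1, 2 or 3, 0 members passed, beside 0% of all genes. In RKO, BCL2L11 was at 19.6, 24.4, 21.3 and 21.9 CPM in LRCs and at 13.3, 14.4, 11.2 and 11.4 CPM in non-LRCs, a log2 fold change of 0.77 ± 0.11 (adjusted p = 4.76e-05) with no overlap.

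The promoter of BCL2L11 is shown as that of a gene higher in LRCs, past the threshold, under each alternative tried across the lines. BCL2L1 (adjusted p at most 0.013, without RKO) and BMF (at most 0.0297, without DLD1) were too. BCL2L11 lies on the plus strand of chromosome 2 (GRCh37, 111876955 to 111926021), and its RefSeq promoter window (GRCh38.p14, 250 bases before to 50 after the start) matched GRCh37 at 1 place, chr2:111878241-111878540. Windows of BMF (chr15:40401031-40401330, minus strand) and BID (chr22:18256700-18256999, minus strand) are set beside it as another BH3-only gene that was higher in LRCs across the lines and the one that was lower. Capitals mark GTAAACA, a core recognized by FOXO factors, or CACGTG, the E-box. These letters, with TGACGTCA (CRE) and TGACTCA (AP-1), were searched on both strands, and the FOXO letters were chosen after the BCL2L11 window had been seen.
BCL2L11: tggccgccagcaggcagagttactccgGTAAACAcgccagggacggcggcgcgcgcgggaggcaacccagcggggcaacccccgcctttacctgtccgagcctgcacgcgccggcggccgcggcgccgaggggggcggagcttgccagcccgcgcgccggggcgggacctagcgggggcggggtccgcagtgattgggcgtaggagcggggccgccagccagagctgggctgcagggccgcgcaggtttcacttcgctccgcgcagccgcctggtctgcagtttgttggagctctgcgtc
BMF: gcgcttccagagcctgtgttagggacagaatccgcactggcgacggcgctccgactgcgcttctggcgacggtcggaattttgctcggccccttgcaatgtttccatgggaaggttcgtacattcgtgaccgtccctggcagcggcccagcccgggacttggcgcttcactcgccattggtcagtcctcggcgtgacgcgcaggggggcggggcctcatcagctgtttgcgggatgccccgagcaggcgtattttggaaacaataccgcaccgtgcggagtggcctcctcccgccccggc
BID: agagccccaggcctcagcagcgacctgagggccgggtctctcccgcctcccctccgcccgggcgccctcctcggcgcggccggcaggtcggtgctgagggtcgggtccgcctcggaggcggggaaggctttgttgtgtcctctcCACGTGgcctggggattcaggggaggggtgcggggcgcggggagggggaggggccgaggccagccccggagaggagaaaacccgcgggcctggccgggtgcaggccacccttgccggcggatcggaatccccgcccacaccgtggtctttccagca
The BCL2L11 window held GTAAACA beginning 223 bases before the start, and 3.42% of 35116 RefSeq promoter windows held it at some place. The BID window shown held CACGTG beginning 106 bases before the start, and 7.26% of windows held it. BID has further windows at other starts. One that overlaps the window shown held the same site, beginning 47 bases before its own start, and the remaining BID windows held none of the 4 motifs. The BMF window shown, like the other BMF window, held none of the 4 motifs. Neither did the windows of BCL2, BCL2L1, PMAIP1 and BAK1, and no window was available for MCL1 and BIK. The CRE letters stood in 1.85% and the AP-1 letters in 4.95% of windows. A match describes letters in a window and does not show a bound site.

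BCL2L11 lies within the span of MIR4435-2HG, a long noncoding RNA on the opposite strand, and the sources used here do not say whether counting used strand. MIR4435-2HG was at 42.9 ± 3.61 CPM in RKO LRCs and 52.7 ± 3.92 CPM in RKO non-LRCs, so its mean was lower where BCL2L11 was higher. In HCT15 it was at 15.5 ± 4.3 CPM in LRCs against 10 ± 1.99 CPM in non-LRCs. In HT55 (15 ± 1.82 against 13.1 ± 0.844 CPM), SW948 (12.8 ± 1.34 against 12.1 ± 1.11), SW48 (11.9 ± 0.59 against 11.5 ± 0.95) and DLD1 (9.64 ± 1.18 against 9.33 ± 0.144) its mean was also higher in LRCs, by less than in HCT15. In these 5 lines its mean thus moved in the same direction as that of BCL2L11. Its part in the BCL2L11 counts was not tested.

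BMF, which encodes a BH3-only protein tethered to the cytoskeleton, was the 1 member past the threshold in DLD1, where 14.6% of genes passed. It was at 75.1, 72.6, 80.6 and 69.4 CPM in DLD1 LRCs and at 53.8, 49.9, 48 and 46.3 CPM in DLD1 non-LRCs. The groups did not overlap, and the log2 fold change was 0.60 ± 0.06 (adjusted p = 0.00059). In RKO, BMF was at 4.26, 2.75, 2.89 and 4.38 CPM in LRCs and at 1.06, 1.62, 1.18 and 1.37 CPM in non-LRCs, a log2 fold change of 1.40 ± 0.24 (adjusted p = 0.000269). These levels were low, and the smallest BMF count in any library was 14 reads. In HCT15 the log2 fold change was -0.01 ± 0.29 (adjusted p = 0.983), with libraries 3 and 4 above libraries 1 and 2 in both populations.

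With the replicate number as a block, 3 members passed in DLD1, where 33.8% of all genes did. BCL2L1 (0.15 ± 0.04, adjusted p = 0.00556) and BCL2L11 (0.27 ± 0.06, adjusted p = 0.00214) joined BMF. DLD1 LRCs held 238, 243, 228 and 217 CPM of BCL2L1 and non-LRCs 205, 231, 197 and 206 CPM, so the groups overlapped. BCL2 was at 0.999, 1.06, 0.949 and 0.795 CPM in DLD1 LRCs and 1.91, 0.921, 1.57 and 1.32 CPM in non-LRCs, and at these low levels the log2 fold change of -0.57 ± 0.26 did not pass (adjusted p = 0.168). The summed MKI67 and TOP2A level, 365 to 549 CPM in DLD1 LRCs and 589 to 682 CPM in non-LRCs, did not overlap either, and its part in the DLD1 differences was not tested.

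RKO was the line in which most members differed. There 6 of 9 passed, 4 higher and 2 lower in LRCs, beside 41.5% of all genes, 20.4% higher and 21% lower. BCL2L1 was at 344, 272, 279 and 301 CPM in RKO LRCs and at 143, 155, 154 and 154 CPM in RKO non-LRCs. Every LRC library lay far above every non-LRC library, and the log2 fold change was 0.96 ± 0.08 (adjusted p = 3.11e-07). MCL1 was at 1145, 1259, 1212 and 1326 CPM in LRCs and at 1600.2, 1750.0, 1437 and 1677 CPM in non-LRCs. MCL1 was lower in every LRC library, with a log2 fold change of -0.41 ± 0.08 (adjusted p = 0.000882). The ratio of BCL2L1 to MCL1 per kb was 0.373 ± 0.0588 (SD, n = 4) in RKO LRCs and 0.144 ± 0.0137 in RKO non-LRCs. MCL1 still held 64.3% ± 2.22 of the anti-apoptotic transcripts per kb in RKO LRCs, and BCL2L1 23.9% ± 2.84.

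BCL2 was at 19.2, 18.2, 17.6 and 16.4 CPM in RKO LRCs and 12.3, 15.3, 10.8 and 12.1 CPM in RKO non-LRCs (log2 fold change 0.47 ± 0.11, adjusted p = 0.00326). BID was at 58.6, 54.7, 57.7 and 55.5 CPM in LRCs against 70.2, 72.7, 84.5 and 81.6 CPM in non-LRCs (-0.48 ± 0.08, adjusted p = 0.000195). Neither pair of groups overlapped. PMAIP1 (0.31 ± 0.12, adjusted p = 0.0527), BIK (0.36 ± 0.21, adjusted p = 0.172) and BAK1 (0.06 ± 0.09, adjusted p = 0.643) did not pass in RKO. The summed MKI67 and TOP2A level was 199 to 478 CPM in RKO LRCs and 394 to 535 CPM in RKO non-LRCs, and its part in these differences was not tested.

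The LRC difference itself was tested between lines. In an F test over the 48 sorted libraries, 3 of 9 members passed, beside 14.3% of all genes: BCL2L1 (adjusted p = 4.15e-05), MCL1 (adjusted p = 0.000343) and BID (adjusted p = 0.00858). With each line set against the mean of the other 5, RKO differed for 5 members, beside 16.3% of all genes. These were BCL2L1 (0.80 ± 0.11, adjusted p = 1.09e-06), MCL1 (-0.52 ± 0.09, adjusted p = 3.94e-05), BID (-0.35 ± 0.09, adjusted p = 0.00733), BCL2L11 (0.48 ± 0.15, adjusted p = 0.0218) and BMF (1.08 ± 0.36, adjusted p = 0.0321). No member passed for any of the other 5 lines, where 0.641% of gene tests passed. The nearest to the threshold was BID in HT55 (0.40 ± 0.10, adjusted p = 0.0536), a larger difference than that of BID in RKO and in the opposite direction. With the replicate number within line as a block, BCL2L11 (adjusted p = 0.00572) and BMF (adjusted p = 0.000155) passed the F test as well, so that 5 members did, beside 33.6% of all genes. Replicate numbers did not pair the libraries of SW948 and RKO. Both genes also passed with genes of low count kept in. The F test of BID was lost when libraries numbered 1, 3 or 4 were left out.

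In SW48, 0.796% of genes passed and no member did by edgeR, with 4 members at an unadjusted p under 0.05, beside 13.1% of all genes, and 1 called by DESeq2, beside 2.73%. MCL1 was at 299.8, 293, 299 and 287 CPM in SW48 LRCs and at 239, 229.6, 258 and 229 CPM in SW48 non-LRCs. The groups did not overlap, and the log2 fold change was 0.30 ± 0.07 (adjusted p = 0.113). With the replicate block 2 members passed, MCL1 (0.30 ± 0.06, adjusted p = 0.0115) and BCL2L11 (0.28 ± 0.08, adjusted p = 0.0494), beside 9.69% of all genes. BCL2L1 was at 304, 301, 339 and 331 CPM in SW48 LRCs and at 345, 327, 326 and 307 CPM in non-LRCs, with overlapping groups (-0.04 ± 0.08, adjusted p = 0.88).

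In HCT15, 0.977% of genes passed and no member did by edgeR, with 2 members at an unadjusted p under 0.05, beside 17.2% of all genes, and 0 called by DESeq2, beside 3.77%. PMAIP1 was at 53.1, 55.4, 38 and 29.7 CPM in HCT15 LRCs and at 35.3, 46.1, 23.4 and 21.9 CPM in HCT15 non-LRCs. Libraries 1 and 2 lay above 3 and 4 in both populations, and each LRC library exceeded the non-LRC library of its number. With the replicate block 3 members passed, PMAIP1 (0.50 ± 0.08, adjusted p = 0.000302), BCL2L1 (0.26 ± 0.06, adjusted p = 0.00605) and BID (-0.24 ± 0.08, adjusted p = 0.0449), beside 21.3% of all genes. Without the block, the log2 fold change of PMAIP1 was 0.48 ± 0.26 (adjusted p = 0.361).

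In HT55 and in SW948, 0% of genes passed by edgeR. At an unadjusted p under 0.05 there were 1005 of 13391 genes in HT55, 1 member among them, and 2350 of 13674 in SW948, 5 members among them. DESeq2 called 37 genes in HT55, with 0 members, and 245 in SW948, with 1 member. HT55 LRCs held 394, 329.8, 398 and 435 CPM of BCL2L1 and non-LRCs 287, 342, 346 and 329.6 CPM (0.26 ± 0.10, adjusted p = 0.618), with LRC library 2 inside the non-LRC range. In SW948, BMF was at 6.09, 6.78, 8.02 and 5.87 CPM in LRCs and at 3.87, 4.15, 5.6 and 4.27 CPM in non-LRCs, without overlap (0.59 ± 0.17, adjusted p = 0.159).

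Neither BIK nor BAK1 passed in any line. The log2 fold change within lines lay between 0.06 and 0.36 for BIK and between -0.03 and 0.25 for BAK1. BAK1 did not overlap in DLD1, at 10.8, 12.4, 11.3 and 11 CPM in LRCs against 9.76, 10.6, 9.09 and 9.42 CPM in non-LRCs (0.24 ± 0.09, adjusted p = 0.105). GGNBP1, which overlaps BAK1, and BAK1P1, a pseudogene copy of BAK1, reached at most 1.65 and 5.03 CPM in any library.

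With each line centered on its own mean, members moved together to different degrees over the 48 sorted libraries. The highest Pearson r was that of BCL2L11 with BMF (0.803), and the lowest that of BCL2L11 with BID (-0.572). BCL2L1 had an r of 0.495 with PMAIP1, 0.489 with BCL2L11, 0.488 with BMF and -0.33 with MCL1. These values describe libraries that share a line, a sort and a similar depth, and they hold the LRC difference itself.

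**Figure D4:**
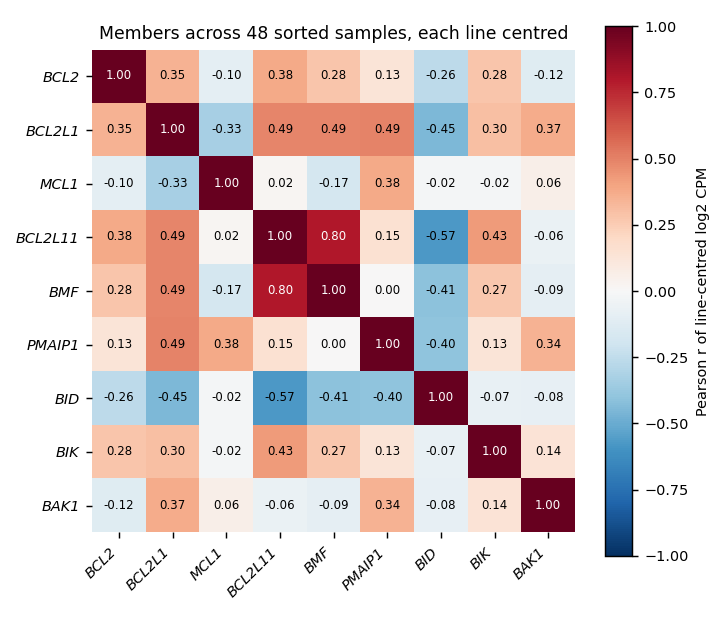
Pearson r of log2 CPM between members over the 48 sorted libraries after each line was centered on its mean (red positive, blue negative). BCL2L11 with BMF has the highest value and BCL2L11 with BID the lowest.

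The genes most like each member, by the same r among 11489 genes, were SRGAP3 (0.833) and ZNF223 (0.819) for BCL2L11 and FOXN3 (0.843) and SRGAP3 (0.839) for BMF. BCL2L1 was most like CD82 (0.868) and SMAD3 (0.852), and PMAIP1 most like GULP1 (0.856) and DUSP6 (0.843). BID was most like TALDO1 (0.83) and MRPS7 (0.814), MCL1 like RAB21 (0.795) and PPP2CB (0.789), and BAK1 like VAT1 (0.721) and KRT18 (0.686). The lowest values were those of BCL2, with ACSM3 (0.62) and ZNF217 (0.619), and BIK, with TIMP2 (0.564) and ISG20L2 (0.563). SRGAP3 stood in the list of both BCL2L11 and BMF.

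Of 8 other BCL2 family genes, all tested across the 6 lines, 0 were higher in LRCs and 2 were lower. These were BOK, a relative of the effectors (-0.12 ± 0.04, adjusted p = 0.0343), and BCL2A1 (-0.85 ± 0.22, adjusted p = 0.00337). BCL2A1 was at 35.1 ± 3.56 CPM in RKO LRCs and 78.8 ± 3.19 CPM in RKO non-LRCs, and its group means in the other 5 lines were at most 0.289 CPM. In RKO the effector BAX (0.24 ± 0.08, adjusted p = 0.0239) and BBC3, which encodes the BH3-only protein PUMA (0.75 ± 0.10, adjusted p = 3.88e-05), were higher in LRCs.

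Of 11 genes of the apoptosome, the caspases and their inhibitors, 3 were higher and 1 lower in LRCs across the lines. BIRC3, of the inhibitor of apoptosis family (0.47 ± 0.10, adjusted p = 0.000322), and DIABLO, whose product relieves caspase inhibition (0.27 ± 0.06, adjusted p = 0.000964), were among those higher. CYCS, which encodes cytochrome c, was lower (-0.18 ± 0.05, adjusted p = 0.00645). The shares called were 25% of the other family genes and 36.4% of the apoptosome and caspase genes, beside 22.9% of all genes. In RKO the shares were 42.9% of 7 and 45.5% of 11, beside 41.5%.

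The control cultures address what time in culture and the dye do to the same genes. In unlabeled libraries labelled DLD1, 1 member differed between the late time point and day 1, beside 25.5% of all genes. This was BMF, at 12.8, 7.31, 10.1 and 9.47 CPM late and at 1.71, 2.43, 1.7 and 8.41 CPM at day 1. Day 1 library 4, which resembled the late group, held the highest day 1 value and lay inside the late range. The log2 fold change was 1.46 ± 0.42 with all libraries (adjusted p = 0.0223), and BMF passed without library 4 as well (2.28, adjusted p = 3.66e-05). Without it BCL2L1 passed as well (0.35, adjusted p = 0.0181), beside 42.1% of all genes. The BMF call was lost when day 1 library 1, 2 or 3, or late library 1, was left out.

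With CFSE, 5 members differed between the late time point and day 1, 2 higher and 3 lower, beside 39.3% of all genes, 20.2% higher and 19.1% lower. BID was at 89.3, 86.3, 62.7 and 66.1 CPM late and 34.7, 40.4, 45.4 and 44.7 CPM at day 1 (0.84 ± 0.12, adjusted p = 0.000224). BCL2L1 was at 212, 209, 181 and 189 CPM late and 119, 138, 149 and 151 CPM at day 1 (0.46 ± 0.12, adjusted p = 0.00582). Every late library exceeded every day 1 library for both genes. MCL1 (-0.83 ± 0.28, adjusted p = 0.0258), BAK1 (-0.68 ± 0.22, adjusted p = 0.0216) and BIK (-0.49 ± 0.14, adjusted p = 0.0112) were lower late, and BCL2L11 did not pass (-0.82 ± 0.33, adjusted p = 0.0571). Without unlabeled day 1 library 4, which enters this comparison through the shared spread, the same 5 members passed and BCL2L11 did too (-0.82, adjusted p = 0.0369), beside 43.7% of all genes. BCL2L11 also passed without CFSE day 1 library 3 or 4 or unlabeled late library 1, and without all libraries numbered 3 or 4. The calls of MCL1 and BAK1 were lost without CFSE day 1 library 1 or 2, or CFSE late library 3 or 4. Without all libraries numbered 1 or 2, those of MCL1, BAK1 and BCL2L1 were lost. The calls of BID and BIK were kept in all 20 fits with libraries left out.

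The CFSE day 1 group was not uniform. Its libraries correlated at 0.992 to 0.994 within the pairs 1 and 2, and 3 and 4, and at 0.973 to 0.974 across them. MCL1 was at 880.4, 693, 329 and 350.2 CPM in libraries 1 to 4, BCL2L11 at 49, 43.8, 15 and 15.2 CPM, PMAIP1 at 82.5, 68.5, 24.2 and 26.9 CPM and BAK1 at 37, 44.3, 21.6 and 23.5 CPM. Libraries 1 and 2 held the high values of these 4 genes, whereas BCL2, at 6.27, 6.31, 11.8 and 9.99 CPM, was lower in libraries 1 and 2. The split was not confined to this group. Late MCL1 was at 367, 428, 257 and 260 CPM with CFSE and at 320, 290, 231 and 200 CPM without it. Late BCL2L11 with CFSE, at 17.8, 19.4, 19.2 and 15.5 CPM, did not split this way.

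**Figure D5:**
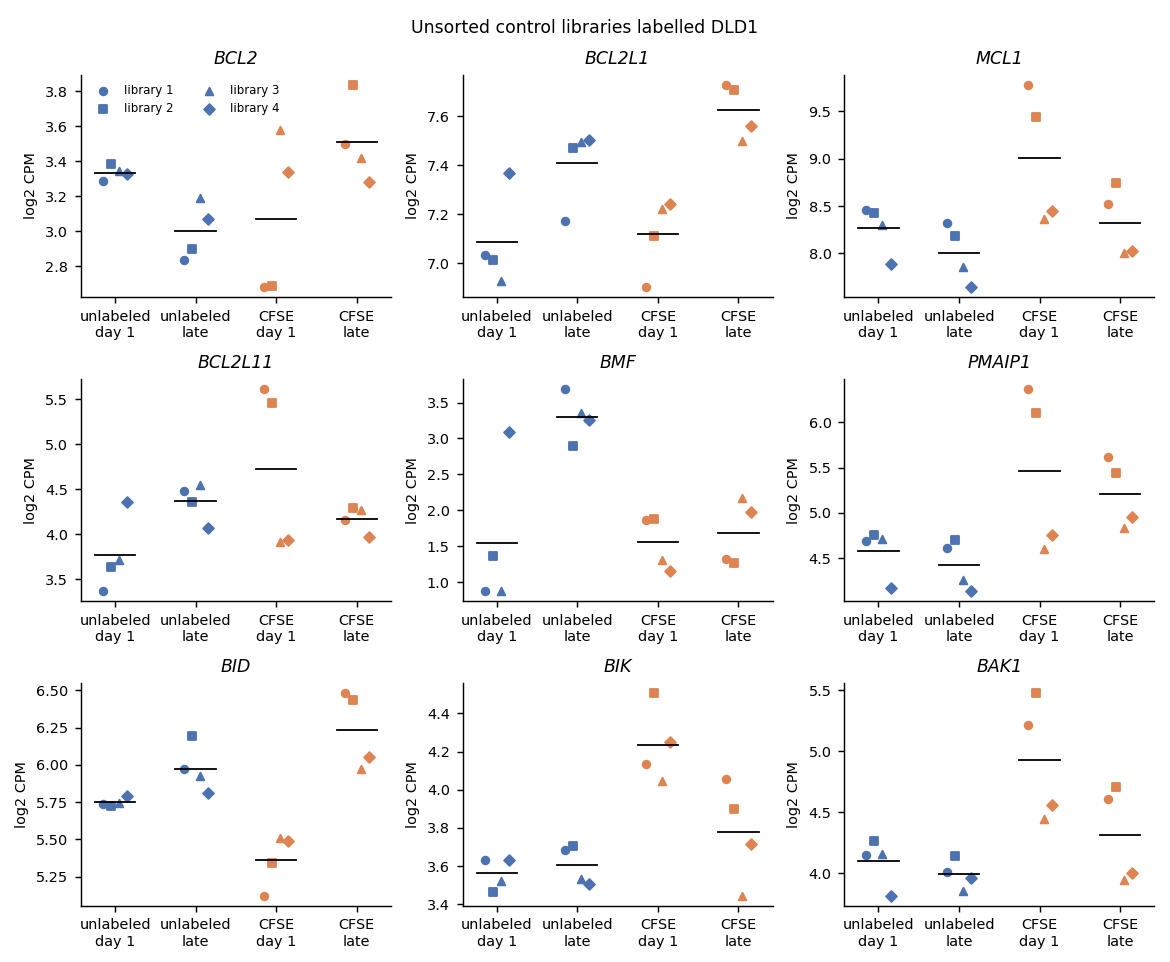
Level of each member (log2 CPM, vertical axis) in the 16 libraries labelled DLD1 (unlabeled blue, CFSE orange), with marker shapes for libraries 1 to 4 of each group and bars for means. CFSE day 1 libraries 1 and 2 lie above libraries 3 and 4 for MCL1, BCL2L11, PMAIP1 and BAK1, and unlabeled day 1 library 4 lies among the late unlabeled libraries for BMF.

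At day 1, CFSE and unlabeled libraries differed for 6 members, 5 higher and 1 lower with the dye, beside 21.8% of all genes, 9.73% higher and 12% lower. The log2 fold changes were 1.16 ± 0.33 for BCL2L11 (adjusted p = 0.0205), 1.10 ± 0.32 for PMAIP1 (adjusted p = 0.0236), 0.92 ± 0.22 for BAK1 (adjusted p = 0.00939), 0.89 ± 0.28 for MCL1 (adjusted p = 0.0312) and 0.71 ± 0.14 for BIK (adjusted p = 0.00383). BID was lower at -0.35 ± 0.12 (adjusted p = 0.0493). Unlabeled day 1 libraries held 10.2, 12.3, 13 and 20.5 CPM of BCL2L11 and 353, 344, 315 and 237 CPM of MCL1. CFSE libraries 3 and 4 lay within both ranges, and CFSE libraries 1 and 2 above them. For BCL2L11 the top of the range was set by unlabeled library 4. CFSE libraries 3 and 4 (15 and 15.2 CPM) lay above the other unlabeled day 1 libraries for this gene.

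Without unlabeled day 1 library 4, BCL2L11 (1.36, adjusted p = 0.0146), BAK1 (0.79, adjusted p = 0.0287) and BIK (0.70, adjusted p = 0.00807) passed, beside 18% of all genes, and MCL1, PMAIP1 and BID did not. With libraries 1 and 2 of each group alone, an alternative chosen after the data had been seen, the day 1 dye difference was larger for BCL2L11 (2.01, adjusted p = 9.16e-07) and MCL1 (1.14, adjusted p = 3.82e-05). With libraries 3 and 4 alone it did not pass for BCL2L11 (-0.11, adjusted p = 0.797) or MCL1 (0.34, adjusted p = 0.189). That split kept unlabeled day 1 library 4, which resembled the late group, so it cannot show whether CFSE libraries 3 and 4 lacked the difference. The calls of MCL1, BCL2L11 and PMAIP1 were each lost without CFSE day 1 library 1 or 2, that of MCL1 also without unlabeled day 1 library 3, and that of BCL2L11 without unlabeled day 1 library 1. The call of BID was lost in 13 of 20 fits with libraries left out, among them those without CFSE day 1 library 1 or 2 or any 1 unlabeled day 1 library. That of BAK1 was lost in 2 and that of BIK in 1, without all libraries numbered 1 or 2 for BAK1 and numbered 2 for BIK.

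At the late time point 1 member differed with the dye, beside 5.13% of all genes. BMF was at 2.38, 2.27, 4.39 and 3.79 CPM with CFSE and at 12.8, 7.31, 10.1 and 9.47 CPM without it. The groups did not overlap, and the log2 fold change was -1.62 ± 0.43 (adjusted p = 0.0387). It passed without unlabeled day 1 library 4 as well (-1.61, adjusted p = 0.00143), beside 13.3% of all genes. The call was lost with CFSE late library 1, 2 or 4, or unlabeled late library 1, 3 or 4, left out. The difference of the time effect with and without dye passed for no member by edgeR, beside 0.999% of all genes. At an unadjusted p under 0.05 there were 5 members, beside 17% of all genes, and DESeq2 called 1, beside 4.24%. Without unlabeled day 1 library 4 it passed for BMF (-2.16, adjusted p = 0.00523), beside 6.09% of all genes. These comparisons share libraries and are not independent of each other.

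The lists of other genes were counted in the same comparisons, with unlabeled day 1 library 4 included. Of the 6 other family genes tested, 66.7% were called for time without dye, beside 25.5% of all genes. For time with dye the share was 50%, beside 39.3%. It was 0% for the dye at day 1, beside 21.8%, and 16.7% for the dye late, beside 5.13%. For time without dye, 2 of the 6 other family genes tested were higher late, BAD (0.71 ± 0.15, adjusted p = 0.00754) and BBC3 (0.50 ± 0.16, adjusted p = 0.0305), and 2 were lower, BAX (-0.43 ± 0.14, adjusted p = 0.035) and BCL2L2 (-0.49 ± 0.14, adjusted p = 0.0229), which encodes the anti-apoptotic BCL-w. For time with dye, BAD (0.72 ± 0.15, adjusted p = 0.00181) and BOK (0.40 ± 0.11, adjusted p = 0.0107) were higher and BCL2L2 (-0.86 ± 0.14, adjusted p = 0.000422) lower. BBC3 was the 1 family gene past the threshold for the dye late (-0.81 ± 0.16, adjusted p = 0.0169). Of the 11 apoptosome and caspase genes, 36.4% were called for the dye at day 1, beside 21.8% of all genes. The share was also 36.4% for time with dye, beside 39.3%, and 0% for time without dye and for the dye late. For the difference of the time effect with and without dye, 0% of either list passed, beside 0.999% of all genes. BIRC3 (1.25 ± 0.19, adjusted p = 0.000913) and the initiator CASP9 (0.43 ± 0.13, adjusted p = 0.0298) were higher with the dye at day 1 and CASP6 lower (-0.52 ± 0.13, adjusted p = 0.0123). For time with dye, BIRC3 (-0.94 ± 0.19, adjusted p = 0.00155) and CASP9 (-0.43 ± 0.13, adjusted p = 0.0192) were lower late and CASP6 higher (0.67 ± 0.13, adjusted p = 0.00132).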

How the data were processed

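RNA-seq was done on 48 sorted and 16 control libraries (single-end reads of 50 bp, per the series text). The authors deposited raw read counts per Ensembl gene, 1 file per library; the submitters' notes name TopHat, HTSeq and DESeq with no versions, and hg19. The annotation and the strand setting of the counting are not given in the sources used here. Reads outside genes (5.19% to 14.8% of a library) and ambiguous reads (1.52% to 2.21%) were left out. Symbols came from GENCODE v44lift37, which matched 47098 of 54127 genes (87%). Reads on genes numbered 12237225 to 20913455 (median 15063858).

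The members, lists and tests were chosen with earlier results of these data known. Genes that reached 10 counts in 4 or more libraries of a fit were tested with edgeR 4.0.16 (R 4.3.3; TMM, quasi-likelihood F test, Benjamini-Hochberg over all genes tested, threshold 0.05). Sorted cells were fitted within each line, and over all 48 libraries with line as a covariate and with the interaction of line and population; non-LRC levels were fitted over 6 lines, and the 16 controls in a fit of their own. SE is the log2 fold change divided by the root of F. CPM used TMM factors over all 64 libraries, and log2 CPM a prior count of 2. Named genes were the members, the genes of both lists past the threshold across the lines or in the controls, and the 2 genes of highest line-centered r with each member; 1 gene of the lists is counted but not reported by name here. Alternatives were relative log expression (RLE) scaling, no filter, DESeq2 1.42.0, a replicate block, all 48 libraries in 1 fit, each line or replicate left out and, chosen after seeing the data, libraries 1 and 2 or 3 and 4 of the controls alone. The scripts were tested on simulated data.

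Replicate numbers were taken to pair LRCs with non-LRCs where the deviations of every same-numbered pair from their group means correlated above 0.1, as in HT55 (r 0.22 to 0.511), SW48 (0.185 to 0.609), DLD1 (0.254 to 0.502) and HCT15 (0.333 to 0.562). The same held between the CFSE controls at day 1 and late, and between no other control groups.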

Additional observations from a re-analysis of the deposited data

Results flagged for a closer look

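In 7 of 144 sets of 4 libraries (9 members in 16 groups), 1 library lay so far from the other 3 that its gap, as a share of the group's whole range, exceeded Dixon's critical value, which is 4.86% of the sets, and chance gives about 1 in 20. BMF in HT55 LRC library 2 was at 81 CPM against 54.2 to 55.5 CPM in the other 3 libraries, a gap of 0.94 of the range. The HT55 non-LRC library of the same number also held the highest BMF of its group (77.1 CPM). MCL1 in HT55 LRC library 1 was at 357 CPM against 336 to 339 CPM in the other 3 libraries, a gap of 0.854 of the range. BCL2L11 in DLD1 LRC library 2 was at 35.9 CPM against 38.5 to 38.9 CPM in the other 3 libraries, a gap of 0.852 of the range. BIK in HCT15 non-LRC library 3 was at 14.6 CPM against 10.4 to 11 CPM in the other 3 libraries, a gap of 0.835 of the range. BCL2L1 in RKO non-LRC library 1 was at 143 CPM against 154 to 155 CPM in the other 3 libraries, a gap of 0.908 of the range. In the libraries labelled DLD1, BCL2L1 in unlabeled late library 1 was at 144 CPM against 177 to 181 CPM in the other 3 libraries, a gap of 0.905 of the range. PMAIP1 in unlabeled day 1 library 4, the library that resembled the late group, was at 17.9 CPM against 25.6 to 26.9 CPM in the other 3 libraries, a gap of 0.872 of the range.

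The difference between LRCs and non-LRCs was itself different between lines for 3 members in the F test over 48 libraries, with an edgeR adjusted p of 4.10e-05 for BCL2L1, 0.00034 for MCL1 and 0.0086 for BID. For BCL2L1 the log2 fold change was 0.96 in RKO and between -0.04 and 0.26 in the other 5 lines. For MCL1 it was -0.41 in RKO and between 0.01 and 0.30 elsewhere. For BID it was -0.48 in RKO and 0.17 in HT55, with the other 4 lines between.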

How the results depend on the processing

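Of 652 member values recomputed under alternatives other than leaving out replicates, 559 kept their direction and their side of the threshold and 14 reversed. Of 1608 values with a replicate left out, 1458 kept both and 47 reversed. BCL2L11, BCL2L1 and BMF across the lines passed under each alternative.

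In this paragraph, the count of members in an alternative fit is followed by the share of all genes called in that fit. With genes of low count kept in, the members called numbered 5 (7.86%) for the difference between lines against 3 as reported, 2 (3.6%) in SW948 against 0, 1 (1.48%) for time by dye against 0 and 2 (3.41%) for the dye late against 1. The count across the lines, 6 as reported, was 4 (10.2%) here and lay between 4 and 7 over all alternatives. DESeq2 called 1 (1.79%) in SW948, 1 (2.73%) in SW48, 2 (15.9%) in DLD1 and 1 (4.24%) for time by dye. With all 48 sorted libraries in 1 fit, 1 (2.34%) passed in SW948, 1 (2.93%) in SW48 and 0 (3.89%) in DLD1, where BMF was lost. The replicate block gave 5 (33.6%) for the difference between lines, 2 (3.66%) in SW948, 2 (9.69%) in SW48, 3 (33.8%) in DLD1, 3 (21.3%) in HCT15, 2 (30%) for time without dye and 2 (10.4%) for the dye late. Same-numbered libraries of SW948 (r -0.0134 to 0.229) and RKO (-0.091 to 0.00909) shared only a number. In the controls, every same-numbered pair of CFSE day 1 and CFSE late correlated above 0.1 (r 0.155 to 0.272), and the block left the same 5 members called for time with dye. In the other 5 pairs of control groups at least 1 pair lay below 0.1, the lowest at -0.248 between the unlabeled groups. Libraries 1 and 2 alone gave 3 (57.8%) for time without dye, 8 (55.9%) for time with dye, 7 (31.2%) for the dye late and 7 (34.6%) for time by dye. Libraries 3 and 4 alone gave 0 (0%), 3 (13.7%) and 0 (0.0144%) for the first 3 of these and 0 (4.86%) for the dye at day 1. These splits were chosen after seeing the data, and the cause of these shifts was not tested. The split of libraries 3 and 4 kept unlabeled day 1 library 4, which resembled the late group. The levels between lines had no blocked fit.

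With replicates left out, members called ranged over 4 to 6 across the lines, 2 to 5 for the difference between lines, 0 to 2 in HT55, 0 to 5 in SW948, 6 to 7 in RKO, 0 to 0 in SW48, 1 to 2 in DLD1, 0 to 0 in HCT15, 0 to 3 for time without dye, 2 to 7 for time with dye, 0 to 6 for the dye at day 1, 0 to 1 for the dye late and 0 to 2 for time by dye. All 9 members still differed between lines, with 107 to 113 pairwise calls. Calls among all genes moved as well. Across the lines, fits without a replicate number called 2243 of 16337 to 2945 of 16380 genes, against 3803 of 16603 with all libraries. In SW948, 14.5% of genes passed without LRC library 4 and 0% without LRC library 1, 2 or 3. For the other ranges the share of all genes is not given here, so they are not read as results about the members.

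MCL1 across the lines was -0.00128 without SW948 and -0.0123 without SW48, and BMF in HCT15 was 0.00733 with the block. On libraries 3 and 4 alone, BIK was -0.0875 for time without dye. BCL2 (-0.206), BCL2L11 (0.113) and PMAIP1 (0.115) reversed for time with dye, BCL2 (0.171) and BCL2L11 (-0.11) for the dye at day 1, and BCL2L1 (-0.103) and PMAIP1 (0.416) for time by dye. On libraries 1 and 2 alone, BMF was -0.685 for time with dye and 0.746 for the dye at day 1, and BCL2L1 -0.0473 for the dye at day 1. With replicates left out, sign changes lay within these ranges: in HT55, MCL1 -0.0524 to 0.083, PMAIP1 -0.203 to 0.128 and BAK1 -0.0565 to 0.0942, in SW948, BAK1 -0.0769 to 0.0215, in RKO, BAK1 -0.0313 to 0.11, in SW48, BCL2L1 -0.0831 to 0.0137 and BAK1 -0.0486 to 0.243, in DLD1, PMAIP1 -0.0248 to 0.372, and in HCT15, BMF -0.207 to 0.156 and BIK -0.0396 to 0.182. In the controls they were BIK -0.0583 to 0.0946 for time without dye, BMF -0.168 to 0.317 for time with dye, BCL2L1 -0.0448 to 0.128 and BMF -0.627 to 0.729 for the dye at day 1, and BCL2L1 -0.0341 to 0.318 and PMAIP1 -0.54 to 0.0458 for time by dye. Depth limited BCL2 and BMF most, with as few as 5 and 14 reads in a library.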
